A study of Mus musculus with 4 samples.

Results

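The SR proteins are splicing factors that carry an RNA recognition motif and a domain rich in arginine and serine, the RS domain, and that help the spliceosome to find exons. Most of their genes contain a poison exon, an alternative exon with a premature stop codon whose inclusion sends the mRNA to nonsense-mediated decay (NMD), and many SR proteins promote the poison exon of their own gene, which keeps their level constant. RS domains are phosphorylated by SRPK and CLK kinases, and the phosphorylated proteins are carried into the nucleus by transportin.

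The genes examined were Srsf1, Srsf2, Srsf3, Srsf4, Srsf5, Srsf6, Srsf7, Srsf9, Srsf10 and Srsf11, chosen by name as the SR family members of the study, and all 10 were among the 37718 genes with a row in the count tables. They held 204 of 359565 exon segments, 98 of 240574 annotated splice junctions, 13 of 5005 junctions outside the annotation and 54 of 207562 introns. RNA had been sequenced from hCD4+ cells of mouse testes at 20 days post partum (dpp), with 2 samples of the Tdrd6+/- genotype as controls and 2 of the Tdrd6-/- genotype, each pooled from at least 4 mice. The human CD4 surface tag, expressed from the Tdrd6 promoter, marks late meiotic prophase cells and was used to enrich diplotene cells on magnetic columns, so both groups are sorted populations defined by activity of that promoter. No source pairs the pools across genotypes, and p-values measure only the spread between the 2 pools of each genotype, which may be technical. In such bulk RNA, fewer cells of one type and less RNA per cell cannot be told apart.

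Gene counts summed to between 26454326 and 31388750 per sample, and intron counts to between 9603669 and 13937818. Tdrd6 itself, the gene that is disrupted, had 33220 and 39322 counts in Tdrd6+/- and 359 and 400 in Tdrd6-/-, in keeping with the labels. Markers of late spermatocytes summed to between 5480 and 7003 CPM (counts normalised to library size), against 28.03 to 38.3 for Sertoli cells, 17 to 22.9 for Leydig cells, 2.68 to 5.45 for macrophages and 2.04 to 2.39 for endothelium. Round spermatid markers summed to 3.21 and 5.71 CPM in Tdrd6+/- and 10.2 and 8.44 CPM in Tdrd6-/-. Acrv1, the only 1 of these 5 that was tested, held nearly all of that sum, with 77 and 159 counts against 297 and 241. It was called higher (adjusted p = 0.057, edgeR quasi-likelihood test), so the sum and this call are not separate observations. The late spermatocyte sum was also higher in both Tdrd6-/- samples, with 2 of 8 markers called higher and 1 lower. Ldhc, which was not called (adjusted p = 0.45 in edgeR), held most of that sum, at 3612 and 3871 CPM against 3984 and 4909. Spermatogonia and early meiosis markers summed to 15 and 15.6 CPM in Tdrd6+/- and 19.5 and 20.3 in Tdrd6-/-, and the Leydig sum was likewise higher in both Tdrd6-/- samples, with 0 markers called in either list (edgeR quasi-likelihood test) and 1, Stra8, at an unadjusted p under 0.05. No marker of any list was at 0 in all samples. Tdrd6-/- replicate 2 stood apart in its intron content. Introns took 34.5% and 29.5% of gene plus intron counts in Tdrd6+/- and 29.8% and 23.4% in Tdrd6-/-.

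The stretches of noncoding exon that end reading of the SR open reading frames are shown first, because the inclusion levels below refer to them. Each runs 5′ to 3′ from the first base of the alternative exon, or of the extension in Srsf10, through the first stop codon that its transcript reads, which is in capitals. Sequences are those of GENCODE M21 transcripts on mm10. The features of the count tables were placed on them by order, which was possible for all introns, for the junctions of 9 members and for the exon segments of 7.

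Srsf3, chr17:29039454-29039487, plus strand: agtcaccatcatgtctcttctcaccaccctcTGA
Srsf4, chr4:131884276-131884390, plus strand: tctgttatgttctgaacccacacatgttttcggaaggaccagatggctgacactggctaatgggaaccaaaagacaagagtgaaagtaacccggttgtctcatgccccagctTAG
Srsf6, chr2:162932815-162932966, plus strand: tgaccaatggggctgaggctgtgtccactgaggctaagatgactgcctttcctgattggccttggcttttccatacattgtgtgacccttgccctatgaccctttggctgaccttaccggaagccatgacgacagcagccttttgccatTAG
Srsf11, inner exon, chr3:158023310-158023359, minus strand: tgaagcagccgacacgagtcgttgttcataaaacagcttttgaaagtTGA
Srsf11, outer exon, chr3:158024209-158024231, minus strand: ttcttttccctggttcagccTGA
Srsf10, chr4:135858410-135858449, plus strand: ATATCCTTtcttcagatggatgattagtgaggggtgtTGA

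In Srsf10 the capitals at the start mark ATATCCTT, the letters of the consensus 5′ splice site of the minor (U12-type) spliceosome, which lie here directly after the last base of the coding exon. Splicing at that site joins the coding exons, whereas the alternative transcript reads through it to a donor 62 bases further on and meets the stop codon on the way. The alternative exons were 456 bases long in Srsf3, 268 in Srsf6, 117 and 109 in Srsf11, and 207 for the first of the chain in Srsf4. Those of Srsf3 and Srsf4 and the inner exon of Srsf11 have lengths divisible by 3, so their stop codon and not a shift of the frame ends translation. From the stop codon to the last exon junction of the annotated transcript there were 548 bases in Srsf3, 617 in Srsf4, 534 in Srsf6, 67 and 456 in Srsf11 and 677 in Srsf10. In these transcripts the stop codon lies upstream of a later exon junction, the arrangement that NMD recognises, but in Srsf10 the junction that leads on from the exon after the extended donor had 0 counts. In Srsf6 the junction into the exon had only 1 and 2 counts in Tdrd6+/- and 2 and 1 in Tdrd6-/-. The fully spliced transcript that reads this stop codon was thus almost unseen.

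At the level of whole genes, the question was whether loss of TDRD6 changed the amount of SR mRNA. Srsf4 was lower in Tdrd6-/- and was the only 1 of the 10 genes past the threshold of 0.1 on the false discovery rate (FDR), against 4.8% of 16555 genes tested that passed in either direction and 3.78% that passed as lower. Srsf4, an SR protein with a long RS domain, had 72.2 and 77.7 CPM in Tdrd6+/- replicates 1 and 2 and 56.5 and 51.7 CPM in those of Tdrd6-/-, and values of all genes are given in this order. Both Tdrd6-/- samples lay below both Tdrd6+/- samples. Expression fell by 0.47 on the log2 scale (standard error 0.14, adjusted p = 0.072, edgeR quasi-likelihood test with Benjamini-Hochberg adjustment). The call was lost when Tdrd6+/- replicate 2, Tdrd6-/- replicate 1 or Tdrd6-/- replicate 2 was left out (adjusted p = 0.13, 0.19 and 0.68 in edgeR), with log2 fold changes between -0.54 and -0.40 over the 4 omissions. The part of the germ cell and Leydig marker levels given above in this difference was not tested.

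The other 9 genes did not pass. Srsf9, a short SR protein closely related to SRSF1, had 43.6 and 38.3 CPM in Tdrd6+/- and 31.5 and 35.7 in Tdrd6-/-, without overlap between genotypes (log2 fold change -0.29, standard error 0.16, adjusted p = 0.44 in edgeR). Srsf11, also known as p54, had 255 and 216 CPM against 206 and 199.8 (log2 fold change -0.22, standard error 0.13, adjusted p = 0.52 in edgeR). The groups did not overlap here either, but the gap between them was smaller than that between the Tdrd6+/- samples. With 2 samples against 2 and no difference between genotypes, groups lie apart in either direction with a probability of 0.33. Srsf10, a splicing regulator that is active as a repressor when dephosphorylated, had 205 and 164 CPM against 165 and 154, a log2 fold change of -0.21. Srsf6 had 113 and 86.2 CPM against 90.2 and 80.05, a log2 fold change of -0.23. In both genes Tdrd6+/- replicate 1 was the highest sample and the remaining 3 lay close together.

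The 5 remaining genes had log2 fold changes between -0.06 and 0.07, each below its standard error. Srsf1, the founding member of the family, had 364 and 244 CPM in Tdrd6+/- and 288 and 294 in Tdrd6-/-. Srsf3, the smallest SR protein and one that also takes part in mRNA export, had 194 and 145 CPM against 160 and 187, and Srsf2, which binds exonic enhancers, had 146 and 102 CPM against 115 and 129.6. Srsf5 and Srsf7, the latter an SR protein with a zinc knuckle, had 182 and 149 against 178 and 169 CPM and 139.7 and 114 against 123 and 133 CPM. In all 5 genes both Tdrd6-/- samples lay between the Tdrd6+/- samples. The wide gap between Tdrd6+/- replicates 1 and 2 set the spread, and omission of Tdrd6+/- replicate 1 alone moved the log2 fold change of Srsf1 to 0.27 and of Srsf2 to 0.28. Over the 10 genes the median log2 fold change was -0.14, and over all genes tested it was 0.01.

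Levels between the genes were compared as CPM per kb of annotated exon. Srsf7 had 55.6 ± 4.96 CPM per kb (mean ± SD over all 4 samples), Srsf1 52.1 ± 8.74, Srsf5 42.5 ± 3.69 and Srsf2 41.6 ± 6.42. Next came Srsf3 with 33.2 ± 4.46, Srsf11 with 30.5 ± 3.46, Srsf10 with 24.6 ± 3.20, Srsf6 with 24.3 ± 3.80, Srsf9 with 22.6 ± 3.07 and Srsf4 with 18.1 ± 3.48. The ranges of every pair of neighbours in this order overlapped over the samples, so no step of it exceeded the sample spread. The ends of the order were nevertheless stable over the samples, since Srsf4 was lowest in 4 of 4 samples and Srsf7 or Srsf1 highest in each. They depend on the annotated exon length, which was 2288 bases in Srsf7 but 7003 in Srsf10 and 7175 in Srsf11. In mean CPM without this scaling, Srsf7 (127) lay below Srsf1 (298), Srsf11 (219), Srsf10 (172), Srsf3 (172) and Srsf5 (169). Srsf9 (37.3) then lay below Srsf4 (64.5).

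**Figure D1:**
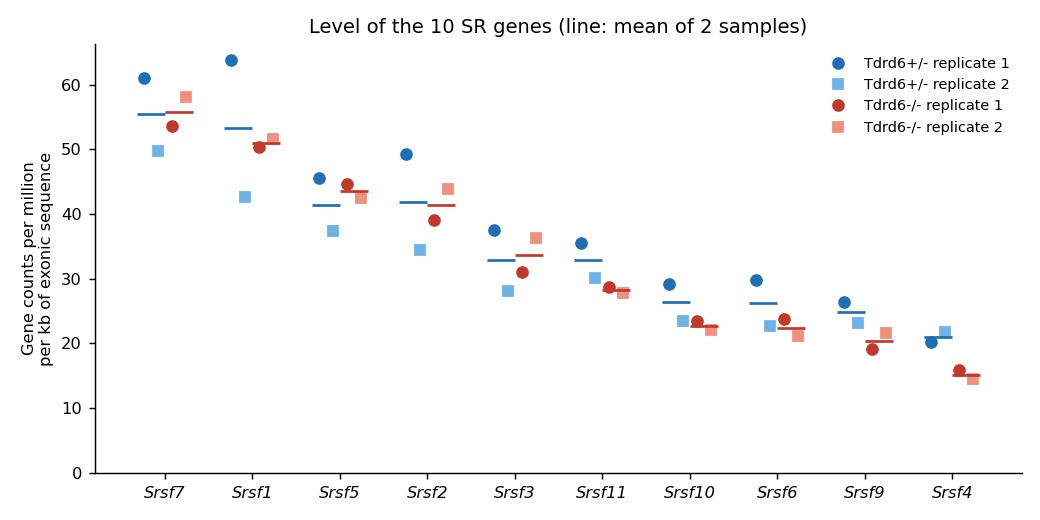
Level of the SR genes in each sample (CPM per kb of annotated exon, vertical axis) in order of the mean over all samples. Circles and squares are replicates 1 and 2, blue is Tdrd6+/- and red Tdrd6-/-, and lines are the means of 2 samples. Srsf4, at the right, is the gene in which both Tdrd6-/- samples (15.9 and 14.5) lay clearly below both Tdrd6+/- samples (20.3 and 21.8).

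Other genes of the SR pathway were examined by a list of 30, made up of SR-like and SR-related proteins, RS domain kinases, the import receptor Tnpo3 and RS domain partners at splice sites. Of these, 29 were tested (Clk4 and U2af1l4 only as rows merged with an overlapping gene) and 3 passed FDR 0.1, all lower in Tdrd6-/-, against 4.8% of all genes in either direction and 3.78% as lower. The median log2 fold change of the 29 was -0.16, against 0.01 over all genes. All 3 were large SR-related proteins without a classical SR protein structure. Srrm2, a scaffold of nuclear speckles, had 593 and 696 CPM in Tdrd6+/- and 371 and 284 in Tdrd6-/-, and it fell by 0.98 on the log2 scale (standard error 0.14, adjusted p = 0.00027 in edgeR). Srrm1, a splicing coactivator, had 128 and 122 CPM against 76.3 and 62.1 and fell by 0.85 (standard error 0.14, adjusted p = 0.00086 in edgeR). Son, another speckle scaffold, had 717 and 759 CPM against 564 and 473 and fell by 0.51 (standard error 0.13, adjusted p = 0.036 in edgeR).

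In these 3 genes the Tdrd6-/- samples lay below the Tdrd6+/- samples, and Tdrd6-/- replicate 2, the library poorest in introns, was the lowest of the 4 each time. Without it the log2 fold change of Son was -0.38 (adjusted p = 0.63 in edgeR). The part of the intron content in this result was not tested. None of the kinases passed, with log2 fold changes of 0.04 for Srpk1, -0.18 for Srpk2, 0.07 for Clk1, -0.09 for Clk2, -0.08 for Clk3, -0.07 for Clk4, -0.22 for Prpf4b and -0.21 for Dyrk1a. Both Tdrd6-/- samples lay below both Tdrd6+/- samples in Srpk2 and Prpf4b. Groups of 2 lie apart in either direction with a probability of 0.33 when genotypes do not differ, so no change is read from this. Srpk3, with 0 and 2 counts in Tdrd6+/- and 2 and 0 in Tdrd6-/-, was below the filter on low counts.

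Inclusion of the alternative exons was read from junction counts, as the mean of the junctions into and out of the exon over that mean plus the junction that skips it. Inclusion differed widely between genes but little between genotypes. No mean differed between genotypes by more than 5.37 percentage points, and with 2 samples against 2 an exact permutation test cannot give a p below 0.33. A high value means that much of the junction signal at this place came from transcripts with the alternative exon.

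The chain of 3 noncoding exons in Srsf4 had an inclusion of 60% (Wilson 95% interval 46.8 to 75) and 47.7% (33.8 to 62.1) in Tdrd6+/- and of 45.8% (30.2 to 63.9) and 54.2% (35.1 to 72.1) in Tdrd6-/-. The genotypes overlapped. The counts were small, with 17, 23, 16 and 11 counts on the skipping junction, and intervals cover counting error only. Srsf4 is the member that was lower as a whole gene, and none of its 16 segments and junctions with an adjusted p passed the test of usage given further on. Of its 5 junctions found only in noncoding or NMD transcripts, 0 received an adjusted p. The junction between the last 2 exons of the chain had 55 and 48 counts against 38 and 53, which was 48.6% of the highest junction count of the gene over all samples.

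Srsf6, an SR protein with tandem RNA recognition motifs, included its poison exon at 37.6% (28.5 to 47.8) and 45.6% (35.1 to 56.5) in Tdrd6+/- and at 35.9% (26.8 to 46.1) and 36.6% (28.5 to 46.9) in Tdrd6-/-. Both Tdrd6-/- values were below both Tdrd6+/- values (difference -5.37 percentage points, two-sided exact permutation p = 0.33), but every interval overlapped the others. This level rests almost wholly on the junction out of the exon, since the mean over all samples was 55.4% from that junction alone and 2.73% from the junction into it. In Srsf3 inclusion was 12.4% (9.40 to 16.2) and 12.3% (9.28 to 16.1) against 10.3% (7.86 to 13.7) and 11.6% (9.06 to 14.7), again lower in both Tdrd6-/- samples by a difference within the intervals (-1.40 percentage points, exact permutation p = 0.33). From the junction out of the exon alone it was 16.9% and from that into it 5.6%. These were the 2 of 8 events without overlap between genotypes. With no difference between genotypes, an event lies apart in this way with a probability of 0.33, so 2 of 8 is no excess. The leaving junctions of the Srsf3 and Srsf6 exons had usage log2 fold changes of -0.15 and -0.03, neither past FDR 0.1.

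For Srsf11 the inner exon was included at 38.2% (29.4 to 47.9) and 30.5% (22.9 to 39.3) in Tdrd6+/- and at 28.3% (21.7 to 35.4) and 31.8% (25.4 to 39.0) in Tdrd6-/-, with overlap. Its outer exon was rare, at 2.33% and 7.34% against 2.88% and 6.25%. Srsf2, whose alternative exon of 104 bases (chr11:116851648-116851751, minus strand) lies in the part after the stop codon, included that exon at 7.25% (4.96 to 11) and 6.15% (4.05 to 9.8) against 5.04% (3.02 to 7.78) and 6.65% (4.47 to 9.78). In Srsf5 the alternative last exon (chr12:80948129-80948504) took 26.7% (19.9 to 34.9) and 7.02% (3.60 to 13.2) of the junction counts from its donor in Tdrd6+/-. The 2 Tdrd6+/- replicates thus differed beyond their intervals, and the Tdrd6-/- samples, with 16.8% and 17.2%, lay between them.

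In Srsf10 the donor after the U12-type site competed closely with it. The junction from the extended donor had 98 and 132 counts in Tdrd6+/- and 143 and 157 in Tdrd6-/-, and the coding junction from the U12-type site had 117 and 125 against 131 and 162. The extended form therefore made up 45.6% (39.1 to 52.3) and 51.4% (45.3 to 57.4) in Tdrd6+/- and 52.2% (46.3 to 58.03) and 49.2% (43.8 to 54.7) in Tdrd6-/-. The genotypes overlapped, and neither junction passed the test of usage (log2 fold changes 0.36 with standard error 0.23 and 0.25 with standard error 0.22, DESeq2 likelihood ratio test, adjusted p = 1.00 for both). The exon that follows the extended donor (chr4:135858842-135859201) held 748 and 769 counts against 884 and 815, between 13.9% and 16.98% of the gene count. The annotated junction that leads on from it (chr4:135859202-135861799) had 0 counts in all 4 samples.

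**Figure D2:**
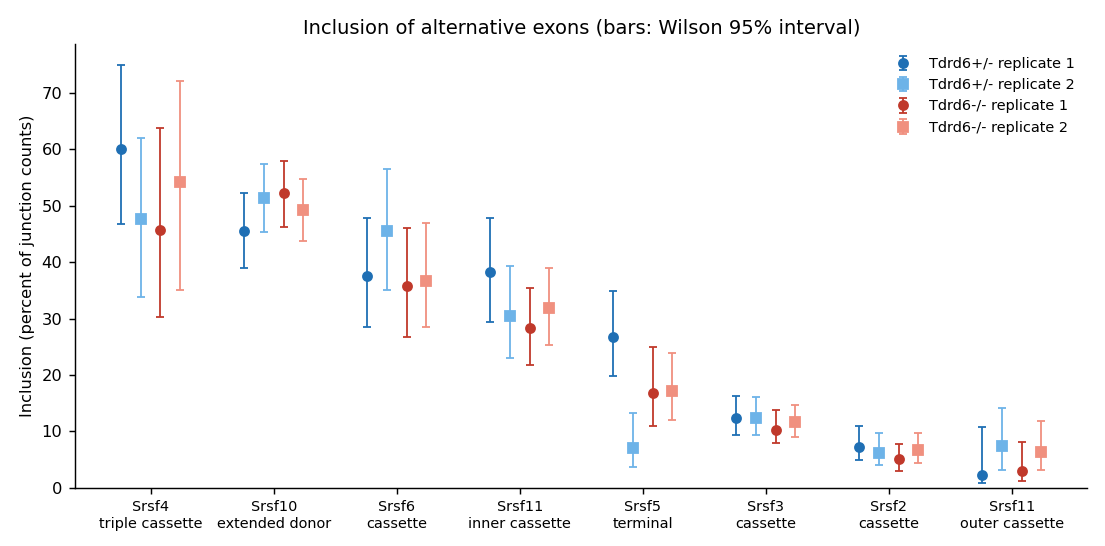
Inclusion of each alternative exon or splice site (percent of junction counts, vertical axis) per sample, with Wilson 95% intervals as bars. Blue is Tdrd6+/- and red Tdrd6-/-, with circles for replicate 1 and squares for replicate 2. Srsf4, Srsf10 and Srsf6 lie above 35%, Srsf2 and the outer Srsf11 exon below 8%, and the intervals of the genotypes overlap for every exon, while the Tdrd6+/- replicates of Srsf5 stand apart at 26.7% and 7.02%.

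For most of the alternative exons, the junction out of the exon was counted more often than the junction into it. Of the 6 events with both junctions annotated, 5 had the higher count on the leaving junction in 4 of 4 samples. In Srsf6 the entering junction had 1, 2, 2 and 1 counts (Tdrd6+/- replicates 1 and 2, then Tdrd6-/- replicates 1 and 2) and the leaving junction 69, 70, 64 and 74, a ratio of 46.2 over all samples. The poison exon of Srsf6 was thus joined to the next exon in each library, while removal of the annotated intron before it was almost never seen. None of the 13 junctions outside the annotation belonged to Srsf6. In Srsf3 the entering junction had 14, 24, 18 and 31 counts and the leaving junction 76, 64, 69 and 85, a ratio of 3.38. In Srsf4 the ratio was 1.86, in the inner exon of Srsf11 1.69 and in Srsf2 1.31. The outer exon of Srsf11 was the exception with a ratio of 0.50, on 26 and 13 counts in total.

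The inequality was present in both genotypes alike. The intron before the Srsf6 poison exon, the second of the gene (chr2:162932143-162932814), had 137 and 108 counts in Tdrd6+/- and 161 and 138 in Tdrd6-/-, or 32.6% and 40.4% of all intron counts of Srsf6 as genotype means. The part of such intron-containing RNA in the unequal junction counts was not tested. This second intron was the only member intron whose usage rose at an unadjusted p under 0.05, and it did not pass FDR 0.1 (log2 fold change 0.50, standard error 0.25, adjusted p = 0.46, DESeq2 likelihood ratio test).

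**Figure D3:**
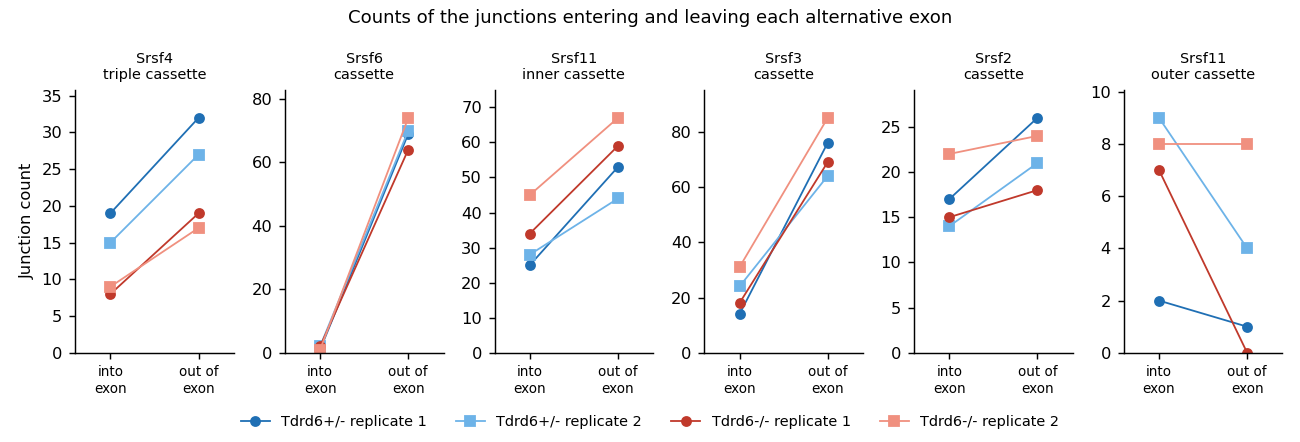
Counts of the junction into and the junction out of each alternative exon (vertical axis, junction count, separate scale for each exon), joined by a line for each sample. Blue is Tdrd6+/- and red Tdrd6-/-. Lines rise in all samples for 5 exons, most steeply for Srsf6, and fall or stay level for the outer Srsf11 exon.

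Across all exon segments and junctions the test of usage asked whether a feature changed its share of the gene count. Of the 315 segments and junctions of the members, 299 had enough counts to be fitted and 230 received an adjusted p. One feature passed FDR 0.1, against 0.221% of 147710 features tested in all. At an unadjusted p under 0.05 there were 24 of 299, against 2.95% of the 323115 features fitted, of which 12 were in Srsf11, 5 in Srsf1, 4 in Srsf10 and 3 in Srsf3. Neighbouring segments share fragments and are not independent of each other.

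The feature that passed was segment 35 of Srsf11. It had 1622 and 1125 counts in Tdrd6+/- and 1068 and 846 in Tdrd6-/-, which was 24.3% and 18.7% of the gene count against 16.4% and 13.2%. Both Tdrd6-/- samples were below both Tdrd6+/- samples, but the Tdrd6+/- samples differed more from each other than Tdrd6+/- replicate 2 from Tdrd6-/- replicate 1. Usage fell by 0.65 on the log2 scale (standard error 0.15, adjusted p = 0.019, DESeq2 likelihood ratio test with Benjamini-Hochberg adjustment). Tdrd6+/- replicate 1 was highest and Tdrd6-/- replicate 2 lowest both in this share and in the intron content of the libraries. The libraries between them, at 29.5% and 29.8% intron content, stood in the opposite order. Intron counts of Srsf11 per 100 gene counts, 39.6 and 34.1 against 32.9 and 27.2, had the same order as the share. Without Tdrd6+/- replicate 1 or without Tdrd6-/- replicate 2, the libraries at the ends of the intron content, the log2 fold change was -0.41 and -0.47 and no longer passed (adjusted p = 1.00 in both fits). With edgeR's usage test it was -0.47 (adjusted p = 0.30). The part of the intron content in this result was not tested.

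The position of segment 35 is not certain, since the annotation gives 47 segments for the 46 in the files. By order it is either a stretch of 1963 bases (chr3:158024762-158026724, minus strand) inside the long intron that holds both poison exons, annotated as exon only in transcripts that retain it, or the coding exon of 134 bases beside it (chr3:158026725-158026858). On the longer stretch its counts amount to 82.6 and 57.3 per 100 bases in Tdrd6+/- and 54.4 and 43.1 in Tdrd6-/-. The intron part on its far side (chr3:158024232-158024697) had 83.0 and 48.3 against 49.6 and 42.7 per 100 bases, close to these values. The intron on the other side, beyond the coding exon (chr3:158026859-158031451), had 17.05 and 12.39 against 11.43 and 9.08 per 100 bases, well below them. On the coding exon the counts of segment 35 would amount to between 631 and 1210 per 100 bases. Other coding exons of Srsf11 were not placed, so this figure could not be compared within the gene. The junction that skips both poison exons and removes this whole region had 63 and 82 counts in Tdrd6+/- and 118 and 120 in Tdrd6-/- (log2 fold change of usage 0.70, standard error 0.25, unadjusted p = 0.0051, adjusted p = 0.56, DESeq2 likelihood ratio test).

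**Figure D4:**
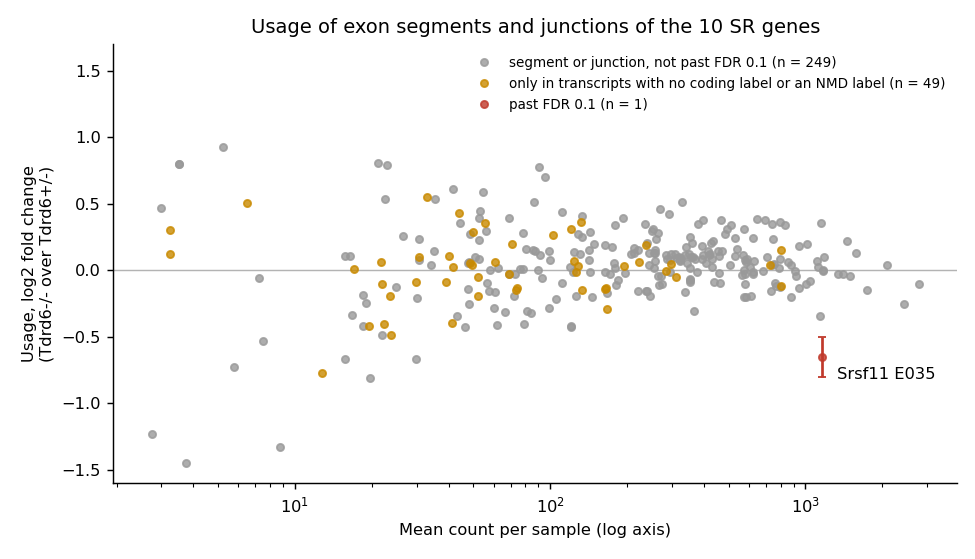
Change in usage (log2 fold change of Tdrd6-/- over Tdrd6+/-, vertical axis) of the fitted segments and junctions of the SR genes against their mean count per sample (horizontal log axis). The red point with its standard error is Srsf11 segment 35 at -0.65. Orange points are features annotated only in transcripts with no coding label or an NMD label, of which 25 received an adjusted p and 0 passed FDR 0.1.

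Features that the annotation places only in noncoding or NMD transcripts comprised 27 junctions and 31 segments. In all 25 of them received an adjusted p, of which 0 passed FDR 0.1 in the DESeq2 likelihood ratio test. Only 5 of the 27 junctions were among the 25, so most noncoding junctions were too rare for this test. The noncoding junctions took 6.62% and 5.96% of all placed junction counts of the members in Tdrd6+/- and 5.18% and 5.91% in Tdrd6-/-. Both Tdrd6-/- values were below both Tdrd6+/- values, with genotype means of 6.29% and 5.54%. The median usage log2 fold change of the 25 was 0.04, against 0.02 over all features tested.

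The share differed strongly between members. In Srsf2 the noncoding junctions took 41.4% and 36.0% in Tdrd6+/- and 31.7% and 37.8% in Tdrd6-/-, most of it on a junction downstream of the coding part (chr11:116850354-116850855) with 198 and 140 counts against 133 and 195 (log2 fold change of usage -0.29, standard error 0.20, adjusted p = 1.00, DESeq2 likelihood ratio test). Srsf4 followed with 30.4% and 23.9% against 21.4% and 26.5%, then Srsf10 with 10.6% and 13.1% against 13.0% and 12.8%. Values were 9.20% and 9.54% against 7.82% and 9.06% in Srsf6, 5.34% and 5.58% against 4.50% and 4.91% in Srsf3 and 5.07% and 6.29% against 6.41% and 5.22% in Srsf1. Srsf11 had between 2.95% and 3.72% and Srsf5 between 0.35% and 1.53%. In Srsf3 and Srsf6 both Tdrd6-/- samples were below both Tdrd6+/- samples, by less than 1 percentage point as genotype means. The noncoding junctions of these 2 genes are those already used for the inclusion of their alternative exons, so this is not separate evidence.

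Beside the Srsf10 exon described above, segments of Srsf5 had high counts among the noncoding ones. In Srsf5 the segment chr12:80948505-80949094 had 916 and 587 counts in Tdrd6+/- and 926 and 793 in Tdrd6-/-, and the alternative last exon before it 798 and 498 against 815 and 806. Neither passed, with usage log2 fold changes of -0.12 (standard error 0.16) and 0.04 (standard error 0.15). The alternative exon of Srsf2 had 229 and 174 counts against 235 and 257, or 5.99% and 6.14% against 6.44% and 6.19% of the gene count (log2 fold change 0.06, standard error 0.17). The main segments of the 3 exons in the Srsf4 chain held between 6.38% and 10.9% of the gene count, with Tdrd6+/- replicate 1 highest in each. In Srsf1 the noncoding junction with the most counts (chr11:88050096-88050976) had 41 and 42 counts against 59 and 57, between 0.43% and 0.65% of the gene count.

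Low-share features, those under 20% of the highest segment or junction count of their gene, numbered 103 of 204 segments and 40 of 98 annotated junctions. Among them the first segment of Srsf3 had the smallest p. It had 257 and 230 counts in Tdrd6+/- and 364 and 464 in Tdrd6-/-, or 5.06% and 5.69% against 7.20% and 7.74% of the gene count. The log2 fold change of 0.51 (standard error 0.15) did not pass (adjusted p = 0.21, DESeq2 likelihood ratio test). Both Tdrd6-/- shares lay above both Tdrd6+/- shares, but the segment was picked by its p, so this separation is no further evidence. The first junction of Srsf3 (chr17:29032787-29036240) also lay higher in both Tdrd6-/- samples and did not pass, with 64 and 55 counts against 134 and 110 (log2 fold change 0.77, standard error 0.26, adjusted p = 0.45).

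In Srsf1 the junction over the first intron (chr11:88048033-88048489) had 257 and 165 counts in Tdrd6+/- and 299 and 352 in Tdrd6-/- (log2 fold change of usage 0.46, standard error 0.16), whereas the last segment (chr11:88051491-88053755), most of the 3′ end, had 1398 and 974 against 1122 and 1066 (-0.34, standard error 0.11). Neither passed FDR 0.1 (adjusted p = 0.49 and 0.34, DESeq2 likelihood ratio test). In Srsf10 the segment with the most counts (chr4:135863870-135865815) had a log2 fold change of -0.26 and the segment chr4:135856132-135856291 near the start 0.42, with adjusted p = 0.73 and 0.96 in DESeq2. When Tdrd6+/- replicate 2 was left out, 9 features passed FDR 0.1, all of them in Srsf11 and segment 35 among them, and 0.461% of 165599 features passed in that fit.

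Srsf7 had no placed noncoding feature, since the transcripts of the annotation used for placement contain only its coding form. It had the most junctions outside the annotation, 7 of the 13 of all members. The most used of them had 102 and 108 counts in Tdrd6+/- and 118 and 117 in Tdrd6-/-, or 2.79% and 3.4% against 3.05% and 2.75% of the gene count, and 24.2% of its highest annotated junction. It did not pass (log2 fold change -0.09, standard error 0.22). The other 6 reached between 3.43% and 10.4% of the highest junction. The files give no positions for them, so they cannot be tied to the Srsf7 poison exon here.

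Introns of the SR genes were counted apart from the gene counts. Intron counts per 100 gene counts were 218 and 179 in Tdrd6+/- and 192 and 154 in Tdrd6-/- for Srsf4, the only member with more intron than gene counts. These ratios are not scaled to length, and intron 1 of Srsf4 alone spans 10405 bases, against 236 for the counted intron of Srsf2. They therefore do not rank the genes by intron signal per base. Srsf7 had 65.2 and 60.2 against 58.6 and 52.7, Srsf10 55.4 and 53.3 against 61.2 and 54.2, Srsf9 54.0 and 52.9 against 62.1 and 55.1 and Srsf11 39.6 and 34.1 against 32.9 and 27.2. The remaining 5 lay between 0.88 for Srsf2 and 15.5 for Srsf6, and for the 10 genes together the values were 31.7 and 32.2 against 29.3 and 24.2. Over all genes of the libraries they were 52.7 and 41.9 against 42.5 and 30.6.

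To ask whether introns of a gene moved relative to its gene count beyond the shift of the whole libraries, each kind of count was scaled by itself. No member passed FDR 0.1, against 3.32% of 12413 genes (edgeR quasi-likelihood test). The largest values were those of Srsf9 (log2 fold change 0.44, standard error 0.16, unadjusted p = 0.0094, adjusted p = 0.17 in edgeR) and Srsf10 (0.39, standard error 0.16, unadjusted p = 0.024, adjusted p = 0.26 in edgeR). These were the 2 of 10 members at an unadjusted p under 0.05, against 13.8% of all genes tested, and both passed when Tdrd6-/- replicate 1 was left out, with 0.56 and 0.51, in a fit that called 9.7% of 11751 genes. The median over the members was 0.20, and over all genes 0.06.

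**Figure D5:**
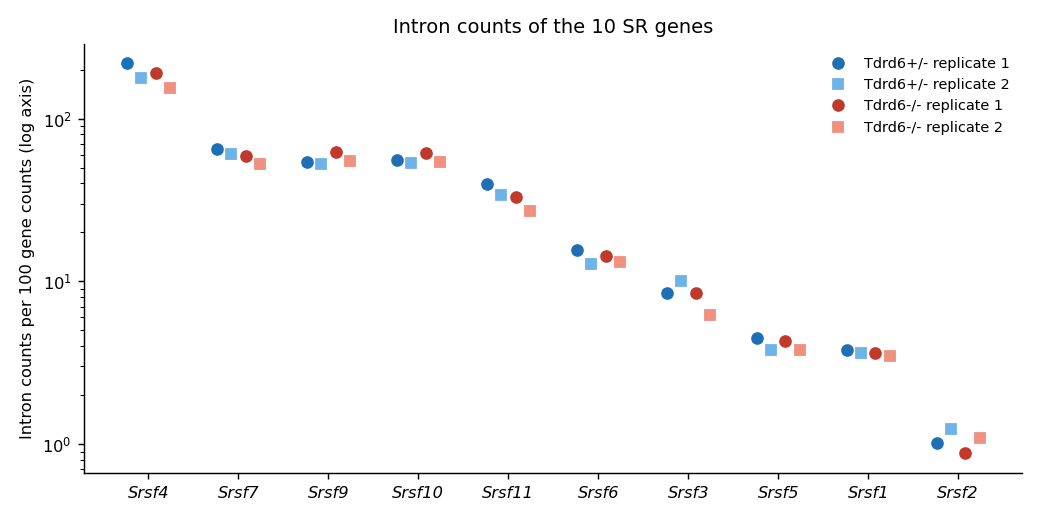
Intron counts per 100 gene counts (vertical log axis) of each SR gene and sample, in order of the mean. Blue is Tdrd6+/- and red Tdrd6-/-. Srsf4 lies above 150 in all samples and Srsf2 near 1, and genes span a much wider range than genotypes. Values are not scaled to the lengths of introns or exons.

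Single introns were compared with the other introns of their gene. Of the 54 introns 31 received an adjusted p and 0 passed FDR 0.1 in the DESeq2 likelihood ratio test, against 1.94% of 28903 introns. At an unadjusted p under 0.05 there were 2 of 53 fitted, against 4.32% of 128748 introns. They were the second of Srsf6 described above and intron 11 of Srsf11 (chr3:158026859-158031451), with 783 and 569 counts in Tdrd6+/- and 525 and 417 in Tdrd6-/- (log2 fold change -0.33, standard error 0.17, adjusted p = 0.47). edgeR's usage test also called 0.

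Among the most counted introns of each member, intron 1 of Srsf4 (chr4:131873871-131884275, 10405 bases, directly before the noncoding chain) had 2522 and 2333 counts against 2058 and 1462, 60.8% and 58.7% of the intron counts of the gene as genotype means. Intron 3 of Srsf10 (chr4:135859232-135861773), downstream of the extended-donor exon, had 2167 and 1735 against 2327 and 1954 and took 72.0% and 73.0%. In Srsf7 intron 5 (chr17:80204388-80205261) had 980 and 782 against 965 and 958, 41.0% and 42.6%. None of these shares passed the test, with log2 fold changes of -0.12, 0.07 and 0.10 and standard errors of 0.15, 0.15 and 0.16. In Srsf1 intron 1 had 214 and 132 against 177 and 179 counts, in Srsf3 intron 2 had 189 and 184 against 193 and 207 and in Srsf9 intron 2 had 200 and 211 against 193 and 244. The most counted intron was the third in Srsf6, with 190 and 101 against 158 and 121 counts, and also the third in Srsf5, with 83 and 59 against 108 and 67. Srsf2, with a single intron free of annotated exon, had 39 and 35 against 32 and 45 counts and could not be tested for usage.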

How the data were processed

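RNA was measured in 4 samples of hCD4+ cells. Per the labels it was depleted of ribosomal RNA and made into strand-specific libraries, and bcl2fastq 1.8.4 is named in the processing notes. The authors aligned the fragments to mm10 with GSNAP, used Ensembl 75 and deposited raw counts per gene, exon segment, annotated or unannotated junction and intron. One fragment may be tallied on more than 1 segment or junction. Segments, junctions and introns carry no coordinates and were placed by order along the chromosome on GENCODE M21 transcripts with an identifier number below 190000, only where their number matched.

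The quasi-likelihood test of edgeR 4.0.16 was applied to gene counts after TMM scaling and filterByExpr, with Benjamini-Hochberg adjustment over all genes. Intron totals were tested against gene counts in edgeR with at least 50 summed counts of each kind. DEXSeq and JunctionSeq are not installed here, so their models were fitted with DESeq2 1.42.0 (likelihood ratio test, at least 10 counts in total, independent filtering at mean counts of 85.5 for introns and 53.4 for segments and junctions). The threshold was FDR 0.1. Inclusion has Wilson 95% intervals on the counts rounded to whole numbers, and permutation tests were exact. Scripts were tested on simulated data. R was 4.3.3 and Python 3.11.15.

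The members, gene lists and tests were chosen with earlier results of these data known. The text names all members, their low-share features with the most counts, those in noncoding transcripts or past FDR 0.1, the top intron of each, and listed genes past FDR 0.1. Srsf3 and Srsf1 end segments, Srsf10 segments, Srsf11 intron 11 and a few other features were named after their values were seen. Alternatives were other scaling, tools, filters and thresholds, each sample left out, and the replicate number as a block.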

Additional observations from a re-analysis of the deposited data

How the results depend on the processing

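With 2 samples per genotype, leaving out 1 library gives a group with a single sample, which is assumed to vary like the other group. The SR genes called at gene level numbered 0 without a filter on low counts and 0 at FDR 0.05, and 0 to 1 over the omissions of 1 sample. The pathway list had 0 calls without a filter on low counts and 2 to 4 over the omissions. SR genes called for introns relative to gene counts numbered 0 to 2. SR exon segments and junctions called numbered 0 with edgeR's usage test and 0 to 9 over the omissions, and SR introns called were 0 under all 12 alternatives, where the edgeR usage test called 2 introns in all.

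Mean inclusion was 5.6% in Srsf3, 42.6% in Srsf4, 2.73% in Srsf6 and 25.9% in the inner Srsf11 exon from the junction into the exon alone, and 16.9%, 58.6%, 55.4% and 37.4% from the junction out of it. Over the omissions it stayed within the spread between samples, but a mean cannot leave that spread when a sample is dropped. The omissions therefore do not test how stable inclusion was.

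The direction of 5 SR genes with small log2 fold changes depended on the sample left out, with ranges of -0.32 to 0.27 for Srsf1, -0.25 to 0.28 for Srsf2, -0.16 to 0.27 for Srsf3, -0.061 to 0.24 for Srsf5 and -0.13 to 0.18 for Srsf7. Srsf2 was at 0.012 without a filter. The intron ratio ranged from -0.24 to 0.48 for Srsf2, -0.26 to 0.16 for Srsf3, -0.0022 to 0.26 for Srsf7 and -0.064 to 0.077 for Srsf11, and was -0.0054 for Srsf11 with DESeq2 size factors. The cause of these shifts was not tested.

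No source pairs the samples, and same-numbered samples had a correlation of deviations of -0.11 over genes and 0.05 over introns. With the replicate number as a block, 1046 genes, 406 intron ratios, 881 introns and 306 exon features were called instead of 794, 412, 561 and 327, with 1, 0, 0 and 1 among the SR genes and Srsf2 at 0.0055. With the numbers crossed, an alternative chosen after seeing the data, 1175, 179, 255 and 279 were called and Srsf2 was at 0.0055.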
